A study of Naumovozyma castellii with 10 samples.

Results

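The comparison described here is that of wild-type Naumovozyma castellii treated with cycloheximide for 15 min (WT CHX) with the same strain left untreated (WT), measured by small RNA sequencing. It used 4 of the 10 libraries of the series, 2 for each group, and 8407 of the 8770 annotation entries. The entries left out were 92 synthetic spike-in controls, which held 0 reads, and 271 that repeated an interval already listed. Both groups were strain YAM2478 (MATalpha ura3-1 ho), grown in YPD at 25 °C to an OD600 of 0.5, with cycloheximide at 100 µg/mL in the treated cultures. For comparison, dcr1 CHX was strain YAM2795 (MATalpha ura3-1 ho dcr1) under the same treatment, and upf1 was strain YAM2890 (MATalpha ura3-1 ho upf1::kanMX6) without treatment, again with 2 libraries each. Single values are also given for untreated dcr1 upf1, strain YAM2943 (MATalpha ura3-1 ho dcr1 upf1::kanMX6), with 2 libraries. The labels describe the replicates of each condition as biological but do not name separate clones or cultures, so p-values measure the spread between these libraries. Every group was a single strain, and no untreated dcr1 library was analysed here.

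RNA interference, lost from Saccharomyces cerevisiae, is still at work in N. castellii. Its Dicer, an RNase III enzyme, cuts double-stranded RNA into small interfering RNAs that are loaded onto Argonaute. Much of that double-stranded RNA can form between messenger RNAs and long noncoding RNAs (lncRNAs) transcribed from the opposite strand. The lncRNAs are classed by what degrades them: XUTs by the cytoplasmic exonuclease Xrn1, CUTs by the nuclear exosome, while SUTs are stable unannotated transcripts. Cycloheximide (CHX) stalls elongating ribosomes on their messages. It thereby also blocks nonsense-mediated decay (NMD), a pathway that is coupled to translation and needs the helicase Upf1. The comparison asks which small RNAs change with CHX treatment. Whether a change came through NMD was not tested. Roles given below for named genes are those known from S. cerevisiae.

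The annotation held 5600 mRNAs, 1280 CUTs, 1021 XUTs, 146 SUTs, 304 tRNAs and 37 snoRNAs. WT CHX libraries held 3169072 and 4323102 reads over these features, against 4144522 and 3389205 in WT. Values are densities, meaning reads per nucleotide multiplied by a factor that scales each library to Schizosaccharomyces pombe spike-in RNA. That factor was 1 and 0.651 in WT CHX and 0.485 and 0.572 in WT. The median mRNA had 35 and 47 reads in WT CHX, against 17 and 14 in WT, so single features rest on few reads. Across features, log2 densities correlated with r = 0.946 between the WT CHX replicates and 0.944 between the WT replicates, and with r of 0.870 to 0.887 between a WT CHX and a WT library. NAM7, the gene for Upf1, had 0 and 0 reads in upf1. The dcr1 label was not checked at its own locus, because no identifier carries the symbol DCR1.

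Cycloheximide was followed by a broad rise in small RNA. Of 7879 features tested, 6071 rose in WT CHX relative to WT, which is 77.1%, and 13 fell, which is 0.165% (limma on log2(density + 0.00145), adjusted p below 0.05). The median log2 fold change over all features was 1.51. For 6968 features, or 88.4%, both WT CHX libraries lay above both WT libraries. The median mRNA density was 0.0257 and 0.0229 in WT CHX, against 0.00627 and 0.00613 in WT. The number of lower features was 22 and 27 without WT CHX replicates 1 and 2, and 22 and 35 without WT replicates 1 and 2.

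The height of that shift depended on the spike-in. When the libraries were instead scaled to equal total reads, the median was 1.03, with 4387 features higher (55.7%) and 85 lower (1.08%). Scaled to equal summed density of tRNA, rRNA and snoRNA, it was 1.16. When the median mRNA was set equal in every library, a scale that removes any change common to mRNAs, the median over all features was -0.16, and 729 features were higher (9.25%) and 1388 lower (17.6%). All of those 729 were also higher under the other 3 scalings, whereas 922 features were higher by the spike-in and lower relative to the median mRNA. Below, a relative log2 change means the one on the mRNA-median scale.

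Summed over each class, small RNA from mRNA strands reached densities of 995 and 875 in WT CHX, against 574 and 530 in WT, a ratio of 1.70 ± 0.147 (SD over pairs of libraries, n = 2 each). XUT density was 1153 and 1032 in WT CHX, against 782 and 760 in WT. CUT density was 314 and 275 in WT CHX, against 170 and 163 in WT. The libraries of the 2 groups did not overlap in any of these sums, and each exact two-sided permutation test gave p = 0.333, the smallest that 2 against 2 libraries allow. Of the gain in summed density, 42.9% lay on mRNA strands, 36.0% on XUTs and 14.3% on CUTs. Class sums and shares do not partition the reads, because 774 features share a same-strand interval with another. For example, the dense CUT1261 lies within XUT0958, so the same reads can count in both classes. The share of reads on mRNA strands was 24.0% and 23.8% in WT CHX, against 17.7% and 17.6% in WT. Counted by feature, 4363 of 5366 tested mRNAs were higher (median log2 1.58). So were 734 XUTs out of 950 (1.42), 794 CUTs out of 1145 (1.38) and 101 SUTs out of 133 (1.37), the last being 66 with total-read scaling. On the mRNA-median scale these class medians were -0.07 for mRNAs, -0.31 for XUTs, -0.33 for CUTs and -0.41 for SUTs.

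**Figure D1:**
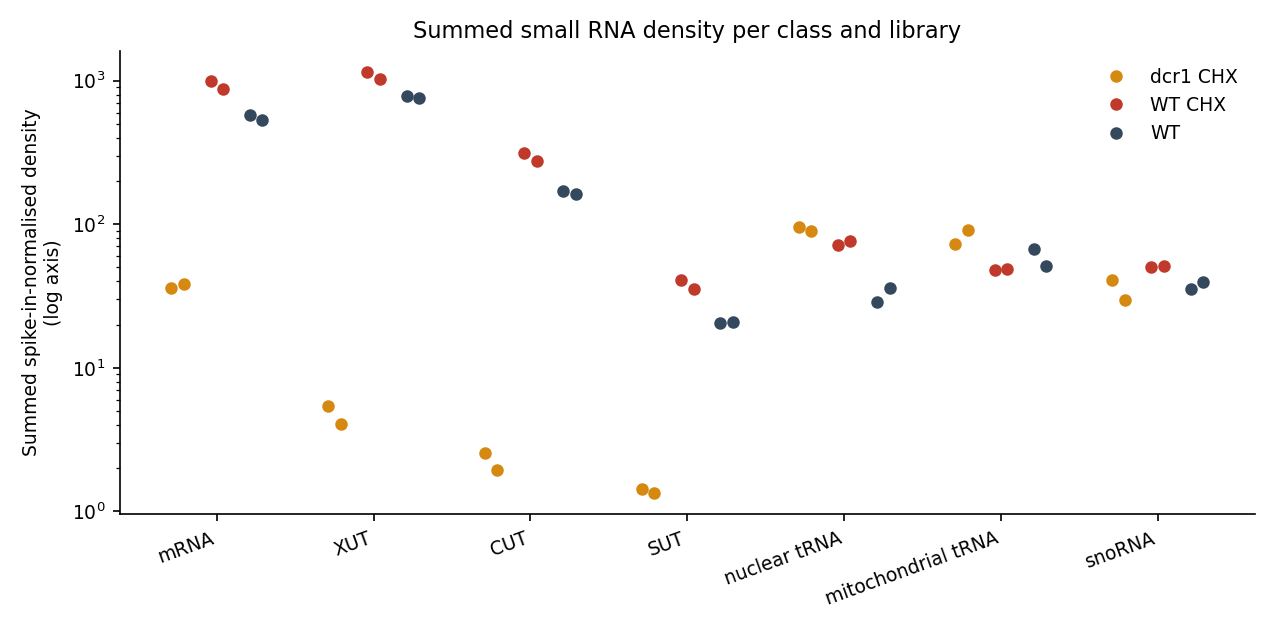
Summed spike-in-normalised density (log axis) of each feature class, 1 point per library, for dcr1 CHX, WT CHX and WT. mRNA strands reached 995 and 875 in WT CHX, against 574 and 530 in WT, while the lncRNA classes were lowest in dcr1 CHX and the tRNA classes were not.

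The largest rises among named mRNAs included genes of ribosome assembly, transcription and membrane traffic. NSA2, a factor of large ribosomal subunit assembly (chromosome 2, 828416 to 829201, minus strand), had densities of 0.237 and 0.231 in WT CHX, against 0.00493 and 0.00654 in WT. MSN2, which encodes a transcription factor of the general stress response, had 0.118 and 0.118 in WT CHX, against 0.00353 and 0.00231 in WT. GLO3, a GTPase-activating protein of Golgi-to-ER vesicles, had 0.782 and 0.628 in WT CHX, against 0.0176 and 0.0227 in WT. In all 3 genes the treated libraries were far above the untreated ones, though the absence of overlap was a condition of the naming rule. The log2 fold changes were 5.04 (SE 0.26), 4.79 (SE 0.28) and 5.03 (SE 0.21), each with a limma adjusted p of 6.58e-05 or 6.54e-05. They also rose relative to the median mRNA, by 3.26, 3.13 and 3.13 on the log2 scale. Also among the largest rises were TSR1, which acts in small ribosomal subunit maturation (log2 4.67, SE 0.28), YHI9 (4.64, SE 0.27), RRT5 (4.56, SE 0.37), RLF2, the large subunit of chromatin assembly factor 1 (4.38, SE 0.45), and OM45, a mitochondrial outer membrane protein (4.37, SE 0.34). The biotin transporter VHT1 rose by 5.00 (SE 0.24). Of mRNAs without a symbol, NCAS_0E02010 on chromosome 5 had 180 and 180 reads in WT CHX, against 3 and 1 in WT.

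**Figure D2:**
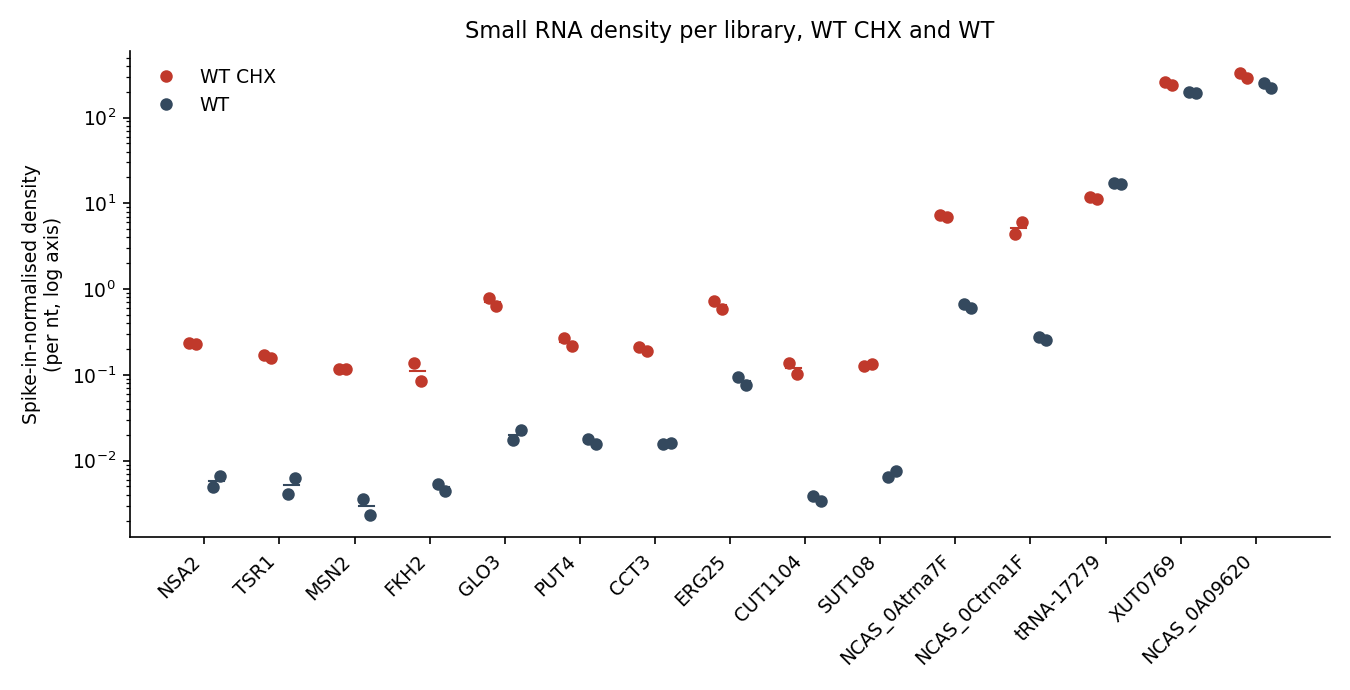
Spike-in-normalised density (log axis) of 15 features in each WT CHX and WT library, with points for libraries and a line at each mean. NSA2 lies at 0.237 and 0.231 in WT CHX, against 0.00493 and 0.00654 in WT, while the mitochondrial tRNA-17279 is lower in WT CHX and the dense XUT0769 and NCAS_0A09620 differ little.

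Lists of genes that build and run the translation machinery differed in how far they rose. Among ribosome biogenesis genes 135 of 153 were higher (median log2 1.92, relative 0.31), beside 81.3% and a median of 1.58 (relative -0.07) for all mRNAs. 24 of the 153 (15.7%) also rose relative to the median mRNA and 6 fell (3.92%), beside 10.2% and 13.7% of all mRNAs. Besides NSA2 and TSR1, RRB1, a chaperone of a ribosomal protein, rose by 4.14 (SE 0.30). All 18 aminoacyl-tRNA synthetase genes were higher (median 1.98, relative 0.28). MES1, the methionyl-tRNA synthetase, rose by 3.62 (SE 0.32), DPS1, the aspartyl enzyme, by 3.22 (SE 0.23), and ARC1, a tRNA-binding cofactor of the methionyl and glutamyl enzymes, by 3.18 (SE 0.30). Of 40 translation factor genes 38 were higher (median 1.80, relative 0.06), led by the eIF4G gene TIF4632 (3.70, SE 0.53), the poly(A)-binding protein PAB1 (3.18, SE 0.26) and the eIF3 subunit TIF34 (3.13, SE 0.40). Ribosomal protein genes were higher nearly throughout, 101 of 108, but their median of 1.54 (relative -0.29) lay below that of all mRNAs. On the relative scale 6 rose (5.56%) and 25 fell (23.1%). Their largest rises were in RPL27B (3.78, SE 0.62), RPS15 (2.75, SE 0.24) and RPS7A (2.67, SE 0.19). Mitochondrial ribosomal proteins stood at 52 of 74 higher, or 70.3% (median 1.39, relative -0.35), and at 31 with total-read scaling.

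Cell cycle, secretion and nutrient uptake genes followed the same general rise, beside 81.3% higher and a median of 1.58 over all mRNAs. The share higher was 88.1% for cell cycle regulators, 93.3% for coat proteins, 86.7% for nutrient transporters and 89.0% for amino acid biosynthesis. The forkhead factor FKH2 of G2/M transcription had 0.138 and 0.0838 in WT CHX, against 0.00541 and 0.00442 in WT (log2 4.10, SE 0.31). RNR1, the large subunit of ribonucleotide reductase, rose by 4.09 (SE 0.23) and the MADS-box factor MCM1 by 3.68 (SE 0.44), and 37 of 42 cell cycle regulators were higher (median 1.80, relative 0.15). Coat proteins of secretory vesicles were higher in 28 of 30 cases (median 1.85, relative 0.28), with the COPI subunit COP1 at 3.70 (SE 0.30) and the COPII subunit SEC31 at 3.61 (SE 0.29). Of 45 nutrient transporters 39 were higher (median 1.80, relative 0.08). On the relative scale 10 rose (22.2%) and 2 fell (4.44%), beside 10.2% and 13.7% of all mRNAs. The proline permease PUT4 had 0.268 and 0.218 in WT CHX, against 0.0177 and 0.0157 in WT (log2 3.75, SE 0.18), and the phosphate transporter PHO90 rose by 3.56 (SE 0.26). Within amino acid biosynthesis 65 of 73 were higher (median 1.79, relative 0.05), among them the homocitrate synthase LYS21 (3.90, SE 0.30), the aspartate kinase HOM3 (3.52, SE 0.21) and the anthranilate synthase TRP2 (3.25, SE 0.36). All 23 ergosterol synthesis genes were higher (median 1.68, relative -0.21), with ERG26 at 3.39 (SE 0.19), ERG5 at 3.07 (SE 0.36) and the methylsterol oxidase ERG25 at 2.92 (SE 0.17).

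The chaperonin subunits CCT3 and CCT6 rose by 3.55 (SE 0.18) and 3.48 (SE 0.31), within a chaperone list of which 26 of 32 were higher (median 1.68, relative 0.08), near the 81.3% over all mRNAs. All 14 genes of glycolysis and fermentation tested were higher (median 1.98, relative 0.08), the lowest being the aldolase FBA1 at 0.998 (SE 0.17, relative -0.94). RNA decay genes were likewise near that share, with 51 of 62 higher (median 1.70, relative 0.16). They included the decapping activator DHH1 at 4.10 (SE 0.33), the poly(A) polymerase TRF5 at 2.95 (SE 0.35), DXO1 at 2.88 (SE 0.26) and the exonuclease gene XRN1 at 2.46 (SE 0.38). All 5 NMD factor genes were higher (median 2.15, relative 0.74). They were EBS1 (3.10, SE 0.23), NMD4 (2.48, SE 0.36), UPF3 (2.15, SE 0.32), NMD2 and NAM7. On the relative scale 1 of these 5 was called higher (20%), beside 10.2% of all mRNAs, and NMD4, UPF3 and NAM7 were not called. NAM7 had 21 and 45 reads in WT CHX, against 13 and 3 in WT (1.87, SE 0.48, limma adjusted p = 0.00997, and 0.0643 without WT replicate 2). Spliceosome genes stood at 52 of 70 higher (median 1.48, relative 0.04), led by the SF3b subunit YSF3 (4.18, SE 0.40), SME1 and the helicase BRR2 (3.77, SE 0.25). For RNA polymerase subunits the count was 26 of 31 (median 1.77, relative -0.05), and for histones 6 of 8 (1.75, relative 0.07), or 3 with total-read scaling.

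The smallest list medians belonged to the proteasome and to the TCA cycle and respiration. Over all mRNAs 81.3% were higher, with a median of 1.58. The share was 64.2% for the TCA cycle and respiration, 72.2% for the proteasome, 76.5% for the vacuolar ATPase and 97.9% for the cell wall. Of 53 genes of the TCA cycle and respiration 34 were higher (median 1.28, relative -0.44), or 20 with total-read scaling. On the relative scale 0 rose by limma (1 at an unadjusted p below 0.05) and 14 fell (26.4%), beside 10.2% and 13.7% of all mRNAs. LSC1, a succinyl-CoA ligase subunit, had 0.00906 and 0.00721 in WT CHX, against 0.00977 and 0.0127 in WT (log2 -0.40, SE 0.34, limma adjusted p = 0.310). COX9, a cytochrome c oxidase subunit, rose by 2.24 (SE 0.34) and ATP4 of the ATP synthase by 2.29 (SE 0.45). Proteasome genes were higher in 26 of 36 cases (median 1.22, relative -0.42), but in 14 without WT replicate 2, in 13 with total-read scaling and in 13 with the tRNA, rRNA and snoRNA scaling. The largest changes were in the core subunit SCL1 at 2.998 (SE 0.20) and the ATPase RPT4 at 2.61 (SE 0.24). Vacuolar ATPase genes stood at 13 of 17 (median 1.41, relative -0.44). Cell wall genes were higher in 47 of 48 cases (median 1.58, relative -0.09), with EGT2, which acts in cell separation, at 3.70 (SE 0.32) and the glucanase SCW11 at 3.21 (SE 0.27). Of the 982 tested members of the 21 lists, 0 were lower on the spike-in scale by limma, 0 at an unadjusted p below 0.05 and 0 by limma-voom. Every list median was above 0 with the spike-in, total-read and tRNA, rRNA and snoRNA scalings, and those given as negative relative values changed sign with the mRNA-median scaling.

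**Figure D3:**
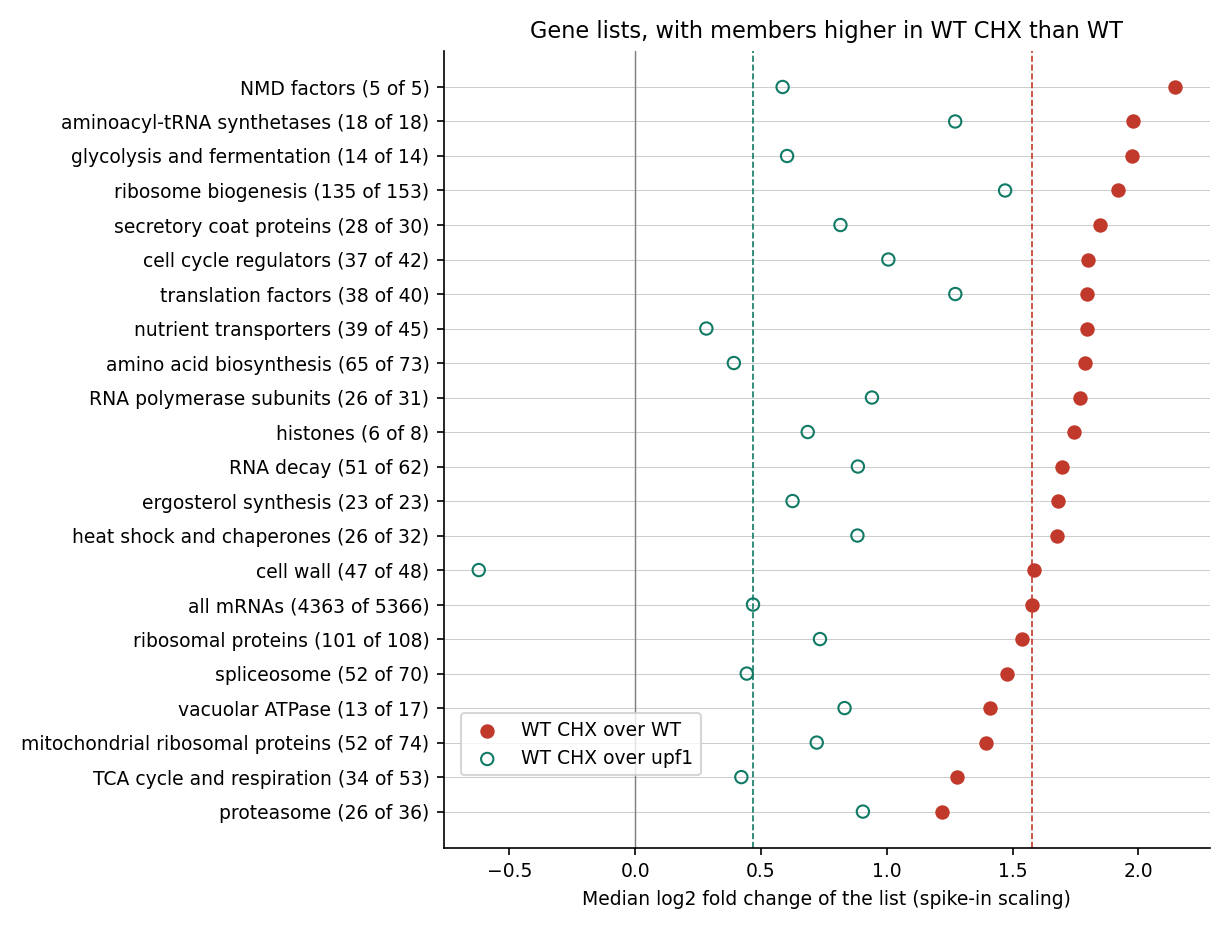
Median log2 fold change of 21 gene lists and of all mRNAs, for WT CHX over WT (filled) and WT CHX over upf1 (open) on the spike-in scale, with the members higher in WT CHX than in WT in brackets and dashed lines at the all-mRNA medians of 1.58 and 0.47. Medians for WT CHX over WT run from 1.22 for the proteasome to 2.15 for NMD factors. With the mRNA-median scaling the medians of several lists, such as ribosomal proteins at -0.29, are below 0.

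The lncRNAs with the largest rises had few or no reads in untreated cells. XUT0080 (chromosome 1, 862156 to 862445, minus strand) had 35 and 29 reads in WT CHX, against 0 and 0 in WT, and was at least 34.0-fold higher when the WT density is set to 3 reads over both libraries. XUT0320 had 17 and 12 reads in WT CHX, against 0 and 0 in WT, and lies antisense to PEX7, a peroxisomal import receptor. CUT1254, antisense to the mitochondrial ribosomal protein gene MRPS9, had 13 and 14 reads in WT CHX, against 0 and 0 in WT. These were at least 15.7-fold and 14.0-fold higher by the same floor, and CUT0160 and CUT0862, also with 0 reads in WT, at least 11.6-fold and 9.56-fold. CUT1104, antisense to the NADH kinase gene YEF1, had 0.137 and 0.101 in WT CHX, against 0.00383 and 0.00338 in WT (log2 4.56, SE 0.28). XUT0122, antisense to CCT3, rose by 4.35 (SE 0.32) on 18 and 24 reads in WT CHX, against 1 and 1 in WT. Of the SUTs, SUT108, antisense to the GTPase gene ARF1, had 0.126 and 0.135 in WT CHX, against 0.00638 and 0.00752 in WT (log2 3.98, SE 0.68), and SUT118 rose by 3.25 (SE 0.28). The absence of overlap between the groups in these lncRNAs was a condition of the naming rule. Over all tested features, 88.4% had both WT CHX libraries above both WT libraries. In all, 536 features had 0 reads in both WT libraries, of which 167 had 3 or more in WT CHX, and 76 had reads in WT and 0 in WT CHX. Among mRNAs, NCAS_0I00280 (41 and 37 reads in WT CHX, against 0 and 0 in WT) and PRM2, a membrane protein of mating (32 and 32, against 0 and 0), were at least 41.1-fold and 33.3-fold higher.

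Small RNAs rose from both strands of overlapping transcripts. AGA2, a subunit of the a-agglutinin adhesin (chromosome 1, 349127 to 349393, plus strand), had 23 and 22 reads in WT CHX, against 0 and 1 in WT. XUT0035, which covers it on the minus strand from 349043 to 349547, had 53 and 85 reads in WT CHX, against 0 and 4 in WT. Both strands were high in the treated libraries alone, with log2 fold changes of 4.93 (SE 0.50) and 5.21 (SE 0.60). CCT3 and its antisense XUT0122, described above, likewise both rose. Over 1606 pairs of an mRNA and an overlapping lncRNA in which both members were tested, both strands were higher in 1178 pairs (73.3%), the lncRNA alone in 114, the mRNA alone in 206 and neither in 108. Counted singly, 81.3% of all tested mRNAs and 73.1% of all tested lncRNAs were higher. Whether the strands of a pair rose together more often than these shares give was not tested. Pairs can share members, with 1239 mRNAs and 1535 lncRNAs in all.

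The balance between strands, the log2 ratio of lncRNA to mRNA density, hardly depends on how libraries are scaled. Its median over pairs was 0.22 in WT CHX and 0.26 in WT. No pair passed the test in either direction (0%, limma, lowest adjusted p = 0.0752), while 254 pairs (15.8%) had an unadjusted p below 0.05. The median shift was -0.05, with quartiles at -0.44 and 0.32, and 1349 pairs (84.0%) shifted by less than 1 on the log2 scale. A pseudocount 10 times larger called 23 pairs towards each strand. The largest shifts, picked after their values were seen, were towards the lncRNA in CUT0862 with NMT1 (3.63, SE 0.41) and CUT1254 with MRPS9 (3.52, SE 0.63), and towards the mRNA in CUT1062 with the kinase gene CBK1 (-3.39, SE 1.32) and XUT0381 with NDT80, a meiotic transcription factor (-3.39, SE 0.82), none of which passed the test.

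**Figure D4:**
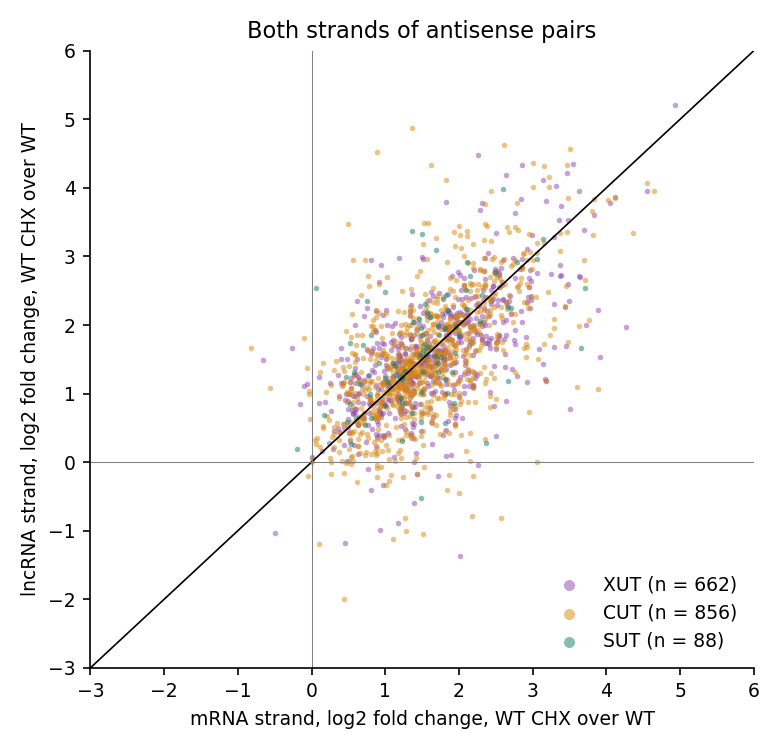
Log2 fold change of WT CHX over WT on the lncRNA strand against that on the mRNA strand for 1606 antisense pairs (662 with XUTs, 856 with CUTs, 88 with SUTs), with the line of equal change. In 1178 pairs both strands were called higher, and the median shift from the line was -0.05. With the mRNA-median scaling points move along the diagonal by nearly the same amount, so distances from the line are little changed.

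The densest small RNA loci changed little. XUT0769 (chromosome 7, 140238 to 141990, minus strand), which alone took 14.4% and 14.9% of reads in WT CHX, against 17.2% and 17.2% in WT, had 261 and 239 in WT CHX, against 197 and 190 in WT. The mRNA NCAS_0A09620 (chromosome 1, 1923028 to 1923234, minus strand), the densest feature, had 331 and 289 in WT CHX, against 253 and 218 in WT. The treated libraries were above the untreated ones for both without overlap, with log2 fold changes of 0.36 (SE 0.11, limma adjusted p = 0.0175) and 0.40 (SE 0.12, limma adjusted p = 0.0176). Neither call held without WT replicate 1, WT replicate 2 or WT CHX replicate 1 (limma adjusted p of 0.0722 to 0.158 for XUT0769 and 0.0537 to 0.209 for NCAS_0A09620), and both log2 values were below 0 with the other 3 scalings. XUT0620 rose by 0.46 (SE 0.11, limma adjusted p = 0.00755, and 0.0534 and 0.0830 without WT replicates 1 and 2). CUT1261, which shares its reads with XUT0958, rose by 0.56 (SE 0.11), and XUT0891 by 0.70 (SE 0.17, limma adjusted p = 0.00868, and 0.0661 and 0.0581 without WT replicate 1 and WT CHX replicate 1). XUT0620, CUT1261 and XUT0891 were not called higher with any of the other 3 scalings. With total-read scaling the log2 values were -0.14, -0.0389 and 0.098 (limma adjusted p = 0.0813, 0.567 and 0.643), with the tRNA, rRNA and snoRNA scaling 0.0376, 0.14 and 0.28 (0.828, 0.402 and 0.194), and on the relative scale all 3 fell, at -1.50, -1.40 and -1.26. XUT0525 at 0.24 (SE 0.10) and NCAS_0E00690 at 0.20 (SE 0.12) did not pass. The 10 features with most reads in each library held 57.7% and 57.7% of reads in WT CHX, against 67.1% and 66.9% in WT. That set was ranked by reads and can differ from the 10 densest features. Without the 10 densest the summed mRNA density was 2.50 ± 0.184 times that of WT and the CUT density 2.04 ± 0.163 times.

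Across the range of densities the median log2 fold change was highest in the middle. The pseudocount added to each density lowers this value in sparse features. By decile of mean density over the 4 libraries, the median log2 fold change was 1.03 in the sparsest, 1.74 in the seventh and 1.27 in the densest. The median WT density of the sparsest decile, 0.000999, lay below the pseudocount, against 0.00376 in WT CHX. It was 0.0149 in WT against 0.0524 in WT CHX in the seventh decile, and 0.162 against 0.410 in the densest. A smaller rise in the sparsest decile can therefore not be read from these log2 values. Calls ran from 32.0% of the sparsest decile to 92.6% of the ninth. Within the densest decile 94.7% of mRNAs and 93.5% of lncRNAs were called higher, with medians of 1.48 and 1.32 (relative -0.47 and -0.63). On the relative scale the medians stayed near 0 in the sparser deciles, and reached -0.68 in the densest. Medians were higher for longer mRNAs, at 1.41 in the shortest length quartile and 1.68 in the longest (relative -0.33 and 0.12). mRNAs without an antisense lncRNA had a median of 1.60, and those covered over more than 50% of their length 1.51 (relative -0.01 and -0.32). The 546 mRNAs that rose relative to the median mRNA had a median length of 1472 nt, against 954 nt for the 734 that fell on that scale. Among those that fell on that scale, RER1, a receptor that retrieves ER proteins from the Golgi, had 1.03 and 0.888 in WT CHX, against 0.782 and 0.724 in WT (log2 0.34, SE 0.15, relative -1.61). SEC20, a SNARE of the same route (0.28, SE 0.14, relative -1.67), and COX19 of cytochrome oxidase assembly (0.17, SE 0.14, relative -1.78) showed the same pattern. On the nuclear chromosomes the share called higher ran from 75.8% to 81.5%. Within 20 kb of the outermost annotated feature at either end of a nuclear chromosome, 188 of 267 features were higher (median 1.23, relative -0.42), against 5883 of 7578 elsewhere (1.52, relative -0.14).

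**Figure D5:**
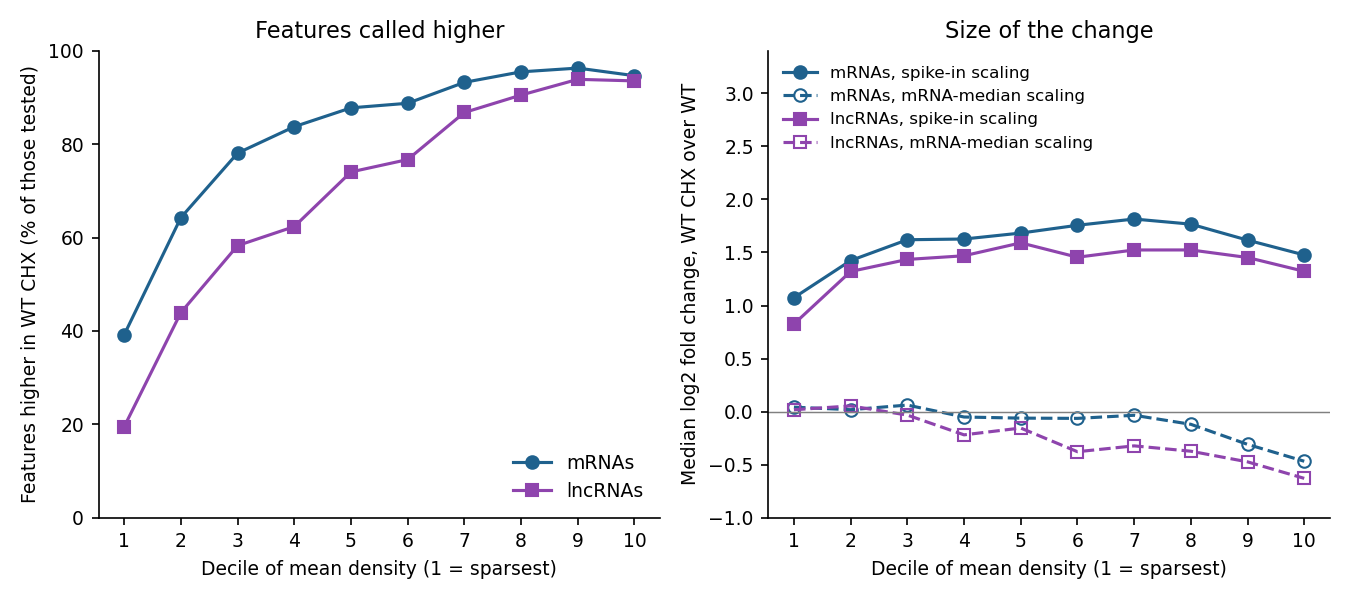
Left, percent of tested mRNAs and lncRNAs called higher in WT CHX than in WT, by decile of mean density over the 4 libraries. Right, the median log2 fold change of the same features with spike-in scaling (filled) and mRNA-median scaling (open). The share called higher is lowest in the sparsest decile and, at 96.3% of mRNAs and 93.9% of lncRNAs, highest in the ninth, with 94.7% and 93.5% in the densest, whereas the spike-in median is 1.74 over all features of the seventh decile and 1.27 in the densest, and the mRNA-median values are below 0 in the denser deciles.

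Reads from mitochondrial RNA did not follow the rise. Of 34 mitochondrial features tested, 0 were higher by limma, also at an unadjusted p below 0.05, 1 was higher by limma-voom on read counts, and 2 were lower by limma, and the median log2 fold change was -0.32. Those 2 were tRNA-17279 and tRNA-2501. With total-read scaling 19 of the 34 were lower (median -0.91), and on the relative scale 31 were lower (median -2.25). tRNA-17279 had 11.7 and 11.3 in WT CHX, against 17.4 and 16.8 in WT (log2 -0.57, SE 0.10, limma adjusted p = 0.00169). tRNA-2501 (-0.81, SE 0.29, limma adjusted p = 0.0387) did not hold without WT replicate 1, WT CHX replicate 1 or WT CHX replicate 2 (limma adjusted p of 0.0692 to 0.210), with a log2 of -0.35 without WT replicate 1. Mitochondrial tRNA density summed to 47.8 and 48.8 in WT CHX, against 67.2 and 51.1 in WT, where replicate 2 lay close to the treated libraries. The mitochondrial share of reads was 0.204% and 0.242% in WT CHX, against 0.513% and 0.334% in WT.

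The other 11 features called lower were mostly counted on few reads. Of those outside the naming rule, chosen after their values were seen, TMA7, a translation-associated protein, had 0 and 0 reads in WT CHX, against 4 and 4 in WT. GTR1, a GTPase of amino acid signalling, had 1 and 0 reads in WT CHX, against 8 and 11 in WT, and TMA10 had 0 and 0, against 1 and 2. GTR1 and TMA10 were not called without WT replicate 2 (limma adjusted p = 0.0783 and 0.120). The tRNA gene NCAS_0Ctrna2N had 0 and 0 reads in WT CHX, against 6 and 3 in WT, a call that held only without WT replicate 2 among the 4 libraries left out in turn (limma adjusted p of 0.0543 to 0.0657 for the other 3). A snoRNA, ENSRNA049639819, was the best covered of the nuclear ones, with 0.734 and 0.758 in WT CHX, against 0.970 and 1.11 in WT (log2 -0.47, SE 0.16, limma adjusted p = 0.0321). This call was lost when any 1 of the 4 libraries was left out (limma adjusted p of 0.0517 to 0.149). Among snoRNAs 19 of 37 were higher (median 0.53, relative -1.43), beside 77.1% over all features. That count was 12 without WT replicate 1, 8 without WT CHX replicate 1, 4 with the tRNA, rRNA and snoRNA scaling, 3 with total-read scaling (median -0.0714, with 8 lower), and 0 on the relative scale by limma, also at an unadjusted p below 0.05, where 27 were lower. The tRNA, rRNA and snoRNA scaling is itself set in part by snoRNA density, so its count is not independent of the class. The largest spike-in changes were in ENSRNA049639933 (1.97, SE 0.26) and ENSRNA049639779 (1.83, SE 0.35).

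Reads from nuclear tRNAs were also denser in sum. The summed density was 71.3 and 76.2 in WT CHX, against 28.9 and 36.0 in WT, a ratio of 2.27 ± 0.304 (SD over pairs of libraries, n = 2 each, exact two-sided permutation p = 0.333). Of 218 nuclear tRNA genes tested 58 were higher and 3 lower, below the 77.1% higher over all features. With total-read scaling 27 were higher and 5 lower, and on the relative scale 7 were higher and 46 lower. The median log2 fold change over these genes was 0.74 with the spike-in, 0.17 with total-read scaling and -1.02 on the relative scale. The largest rise by the naming rule was NCAS_0Ctrna1F (chromosome 3, 588442 to 588540, minus strand), with 4.37 and 6.01 in WT CHX, against 0.279 and 0.254 in WT (log2 4.26, SE 0.16, limma adjusted p = 6.54e-05). After its value was seen, the other tRNA genes whose identifiers end in the letter F were examined, and 7 of the 10 genes of that ending were higher. NCAS_0Atrna7F on chromosome 1 had 7.23 and 6.85 in WT CHX, against 0.673 and 0.608 in WT (log2 3.46, SE 0.12), and NCAS_0Atrna6F had 2.47 and 2.47, against 0.771 and 0.686 (1.76, SE 0.19). Reads from near-identical tRNA copies could be placed on any of them, so the values of single copies are uncertain. Without NCAS_0Ctrna1F the genes with this ending summed to 11.5 and 11.1 in WT CHX, against 1.85 and 1.94 in WT, 5.98 ± 0.223 times as much (SD over pairs of libraries, n = 2 each).

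NCAS_0Atrna7F and NCAS_0Ctrna1F were also high without Dicer, but in different libraries. NCAS_0Atrna7F had 6.52 and 7.11 in dcr1 CHX, against 7.23 and 6.85 in WT CHX (log2 -0.05, limma adjusted p = 0.807). It had 1.04 and 0.877 in untreated upf1, and 0.682 and 0.815 in untreated dcr1 upf1, so the 4 CHX libraries were high and the 6 others low. NCAS_0Ctrna1F was higher in dcr1 CHX, at 10.7 and 9.69, than in WT CHX (log2 0.99, SE 0.19, limma adjusted p = 0.000923). It was also high without CHX in dcr1 upf1, at 8.39 and 7.59, and at 0.902 and 0.954 in upf1, so its level was high in the Dicer-deficient libraries whether or not CHX was given.

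Most other small RNA was lower in CHX-treated cells without Dicer. Of 7727 features tested, 6728 were lower in dcr1 CHX than in WT CHX (87.1%) and 47 were higher (0.608%), of which 41 were tRNAs. Summed XUT density in dcr1 CHX was 0.435% of that in WT CHX, CUT density 0.764%, SUT density 3.63% and mRNA density 3.97%, whereas tRNA density was 143%. Of the features that were higher with CHX and tested for Dicer, 5730 of 6036 were lower in dcr1 CHX, among them 4098 of 4333 mRNAs and 1608 of 1624 lncRNAs, but 9 of 58 tRNAs. Both calls rest on the same WT CHX libraries, so picking features that were high there favours a lower call in dcr1 CHX. The same limit applies to NSA2 and GLO3, which were named for their rise. NSA2 had 0.00673 and 0.00503 in dcr1 CHX, against 0.237 and 0.231 in WT CHX (log2 -5.01, SE 0.26), and GLO3 had 0.00472 and 0.00441, against 0.782 and 0.628 (-6.87, SE 0.26). With the mRNA-median scaling, which sets the lost mRNA density equal, the counts were 2498 lower and 1349 higher.

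The residue without Dicer was uneven among mRNAs. The median tested mRNA kept 8.34% of its WT CHX density in dcr1 CHX. The median was 34.9% over ribosomal proteins, 31.6% over TCA cycle and respiration, 25.3% over mitochondrial ribosomal proteins, 24.6% over aminoacyl-tRNA synthetases and 73.1% over histones. It was 11.5% over ribosome biogenesis, 7.64% over cell cycle regulators and 6.38% over nutrient transporters. The 546 mRNAs that rose relative to the median mRNA with CHX kept 4.07%, the 734 that fell on that scale 3.89%, and the 4086 that did neither 10.4%. Their median WT CHX densities were 0.0537, 0.0779 and 0.0200. Across mRNAs the median share kept was lower at higher density, at 25.4% in the sparsest density decile and 1.24% in the densest. Neither these groups nor the lists were matched for density. Since no untreated dcr1 library was analysed here, whether CHX changes the Dicer-independent part was not tested.

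Set against upf1, the feature classes differed in the number of features called: more mRNAs and SUTs were higher in WT CHX than lower, and more XUTs and CUTs were lower. Both conditions were otherwise measured against the same WT libraries, so the direct difference was tested. Of 7879 features, 1891 were higher in WT CHX than in upf1 (24%) and 1714 were lower (21.8%). Among mRNAs 1557 were higher and 836 lower (median log2 0.47), among SUTs 45 higher and 20 lower (0.51), among XUTs 84 higher and 456 lower (-0.76), and among CUTs 147 higher and 378 lower (-0.29). Mean summed density on the spike-in scale was instead higher in upf1 for each of these classes. It was 1369 in upf1 against 935 in WT CHX for mRNAs, and 57.5 against 38.1 for SUTs. For XUTs it was 1669 against 1093, and for CUTs 518 against 294. The mRNA-median scaling gave 794 features higher and 2410 lower, with class medians of -0.03 for mRNAs, -0.03 for SUTs, -1.27 for XUTs and -0.78 for CUTs. Total-read scaling gave 3473 higher and 1099 lower, with medians of 1.02 for mRNAs, 1.12 for SUTs, -0.12 for XUTs and 0.31 for CUTs. XUTs and CUTs thus lay below mRNAs and SUTs with each of these scalings, while the signs for mRNAs, SUTs and CUTs depended on the scaling. The number higher was 866 and 1215 without WT CHX replicates 1 and 2, and 1197 and 1164 without upf1 replicates 1 and 2.

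Single genes showed both directions of that difference. NSA2 was higher in WT CHX, at 0.237 and 0.231, than in upf1, at 0.0125 and 0.00865 (log2 4.31, SE 0.26, limma adjusted p = 3.46e-05), as were TSR1 (4.52, SE 0.28) and MSN2 (4.44, SE 0.28). XUT0122 had 18 and 24 reads in WT CHX, against 0 and 0 in upf1. Ribosome biogenesis genes were higher in WT CHX in 94 of 153 cases and lower in 1, translation factors higher in 26 of 40 and lower in 0 (limma, 1 at an unadjusted p below 0.05, 0 by limma-voom), and aminoacyl-tRNA synthetases higher in 11 of 18 and lower in 0 (0 by both other counts), beside 29.0% higher and 15.6% lower over all mRNAs. Cell wall genes ran the other way, with 11 of 48 higher and 24 lower (median -0.62, and 0.01 with total-read scaling). EGT2 was lower in WT CHX, at 0.0787 and 0.0731, than in upf1, at 0.179 and 0.217 (-1.36, SE 0.32, limma adjusted p = 0.0125, and 0.0538 to 0.0887 when any of these 4 libraries was left out). VMA8, a vacuolar ATPase subunit, had 0.215 and 0.223 in WT CHX, against 0.513 and 0.442 in upf1 (-1.12, SE 0.15). Chosen after their values were seen, XUT0058 had 0.302 and 0.254 in WT CHX, against 7.74 and 7.42 in upf1 (-4.77, SE 0.13), and the mRNA NCAS_0A03060 0.180 and 0.171, against 4.58 and 4.48 (-4.68, SE 0.14). Relative to WT both nonetheless rose in WT CHX, by 2.51 (SE 0.13) and 2.33 (SE 0.14).

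Position and antisense transcription separated these responses further. Within 20 kb of the outermost annotated feature at either end of a nuclear chromosome, 27 of 267 features were higher in WT CHX than in upf1 and 151 were lower (median -1.22), against 1864 higher and 1550 lower of 7578 elsewhere (median 0.27). Those medians were -1.70 and -0.22 with the mRNA-median scaling. mRNAs covered by antisense lncRNA over more than 50% of their length were higher in 76 cases and lower in 215 of 528 (median -0.40, and 0.22 with total-read scaling), and those without antisense lncRNA higher in 1290 and lower in 467 of 4109 (0.58, and 1.12 with total-read scaling).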

How the data were processed

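Small RNA reads were measured in 10 libraries. Per the labels' protocols, 25 µg of total RNA was mixed with 1 µg of S. pombe RNA, whose centromeric 22 to 23 nt small RNAs served as spike-in, and RNA shorter than 80 nt was purified on a 15% gel for a NEBNext library. Trim Galore and Bowtie, and the S. pombe assembly ASM294v2, are listed in the submitters' processing notes; the N. castellii assembly is not given in the sources used here. The table deposited by the authors holds a signal per feature, the spike-in-normalised density. Multiplied by length, the values of 100% of entries were whole multiples of 1 library factor (tolerance 0.001), from which read numbers were taken. 5 columns of means were not used. Symbols came from the RefSeq gene table of ASM23734v1, which held 5589 of the 5600 mRNA identifiers. For 97.6% of mRNAs the length was a multiple of 3, so it is a coding length, and 774 features share a same-strand interval with another. Whether reads with several matches were split is not given.

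Under R 4.3.3, linear models were fitted with limma 3.58.1 to log2(density + 0.00145), using group means, a trended prior and Benjamini-Hochberg adjustment. They were fitted on the 6 Dicer-proficient libraries, or all 10 for dcr1 CHX, with features whose mean reached the pseudocount. This scale understates changes of sparse features. The procedure was tested on simulated data. Class sums were compared with exact permutation tests over libraries. Named were the features with the largest changes per class, and on the relative scale, among called features with replicates apart and the denser group at or above the median over tested features, the top members of each list, the densest features and those without WT reads; exceptions are named as such. Members and lists were chosen with earlier results of these data known. Floors cover counting error only. Alternatives varied scaling, pseudocount, filter, libraries and the replicate block.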

Additional observations from a re-analysis of the deposited data

How the results depend on the processing

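The wild-type comparison moved most with the library scaling. Against 6071 features higher and 13 lower in WT CHX, the mRNA-median scaling gave 729 and 1388, total-read scaling gave 85 lower, and scaling to summed tRNA, rRNA and snoRNA gave 41 lower; the cause was not tested. For dcr1 CHX against WT CHX, 1349 features were higher and 2498 lower with the mRNA-median scaling, and 26 higher with the tRNA, rRNA and snoRNA scaling. For WT CHX against upf1, the mRNA-median scaling gave 794 higher, and total-read scaling 3473 higher and 1099 lower. The ratio of summed density, WT CHX over WT, was 1.27 for mRNA, 1.06 for XUT, 1.32 for CUT, 1.38 for SUT, 1.01 for snoRNA and 0.997 for tRNA with the tRNA, rRNA and snoRNA scaling. Without the 10 densest features it was 2.50 for mRNA, 1.54 for XUT and 2.04 for CUT. A pseudocount 10 times larger called 23 pairs towards the lncRNA and 23 towards the mRNA, and the other pair alternatives 0.

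Several log2 changes took the opposite sign. With the mRNA-median scaling they were NCAS_0Atrna6F at -0.19, ENSRNA049639779 at -0.13, NCAS_0A09620 at -1.56, XUT0769 at -1.60, CUT1261 at -1.40, XUT0620 at -1.50, XUT0525 at -1.71, NCAS_0E00690 at -1.76, XUT0891 at -1.26, RER1 at -1.61, SEC20 at -1.67, COX19 at -1.78 and FBA1 at -0.94, and NCAS_0Atrna7F in dcr1 CHX against WT CHX at 3.60. With total-read scaling they were NCAS_0A09620 at -0.20, XUT0769 at -0.23, CUT1261 at -0.0389, XUT0620 at -0.14, XUT0525 at -0.35, NCAS_0E00690 at -0.40, RER1 at -0.25, SEC20 at -0.31 and COX19 at -0.43. With the tRNA, rRNA and snoRNA scaling they were NCAS_0A09620 at -0.0217, XUT0769 at -0.0553, XUT0525 at -0.17, NCAS_0E00690 at -0.22, RER1 at -0.0737, SEC20 at -0.13 and COX19 at -0.25. NCAS_0Atrna7F in dcr1 CHX against WT CHX ran from -0.111 to 0.0153 when a library was left out, with the positive value without dcr1 CHX replicate 1.

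Leaving out 1 library in turn gave 4943 to 5419 features higher and 22 to 35 lower in WT CHX than in WT, 32 to 47 higher and 6377 to 6538 lower in dcr1 CHX than in WT CHX, and 866 to 1215 higher and 1267 to 1474 lower in WT CHX than in upf1. The summed ratios then ran from 1.59 to 1.80 for mRNA, 1.34 to 1.50 for XUT, 1.65 to 1.89 for CUT, 1.70 to 1.98 for SUT, 1.27 to 1.40 for tRNA and 1.29 to 1.43 for snoRNA.

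Replicate numbers did not pair the libraries: same-numbered deviations from group means correlated at -0.0015 between WT CHX and WT. With the replicate block, 6021 features were higher and 15 lower in WT CHX than in WT, 49 higher and 6714 lower in dcr1 CHX than in WT CHX, 1824 higher and 1685 lower in WT CHX than in upf1, and 0 pairs were called. The planned edgeR and DESeq2 alternatives were not run, since the deposited values are densities; limma-voom and total-read scaling were added after seeing the data, and limma-voom gave 6262 higher and 15 lower in WT CHX than in WT.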
